A study of Drosophila melanogaster with 6 samples.

Results

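Described here are 10 genes of the basement membrane, namely Col4a1, vkg, SPARC, trol, Ndg, Ppn, Glt, Pxn, Tig and PH4alphaEFB, out of 17714 genes in the deposited tables. They were taken by gene symbol, in a choice made with earlier results of these data known, and all 10 were present in the tables. The samples were 3 libraries labelled ko (KO) and 3 labelled wild type (WT), each of poly(A) RNA from Kc cells, a Drosophila melanogaster line of embryonic origin. The series' title names CG14906 (mettl4) as the gene under study. The titles of the KO samples begin with OE while their genotype and source fields read ko, and no label gives the allele, the clone or whether replicates were separate cultures, so the tests describe variation among these 6 libraries, which may be technical.

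A basement membrane is a thin sheet of secreted matrix that lines epithelia, muscles and fat body. Its network is built from laminins and from collagen IV, a trimer that in Drosophila is made of the chains encoded by Col4a1 and vkg (viking). Perlecan (trol), a heparan sulfate proteoglycan, and nidogen (Ndg) join the network, and further glycoproteins such as papilin (Ppn), glutactin (Glt) and tiggrin (Tig) are laid down with it. Collagen IV is hydroxylated on prolines in the endoplasmic reticulum by enzymes of the kind encoded by PH4alphaEFB, binds SPARC, and is cross-linked outside the cell by peroxidasin (Pxn). In the fly, blood cells and fat body are the main makers of these proteins, and Kc cells are plasmatocyte-like, that is, they resemble the macrophage-like blood cells.

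The libraries held between 9963557 and 18906951 expected counts, the read numbers per gene that RSEM estimates. CG14906 RNA stood at 20.3, 18.5 and 20.2 normalised CPM (a count per library total, scaled between libraries) in KO replicates 1 to 3, against 18.9, 20.1 and 16.4 in WT replicates 1 to 3. The fitted log2 difference of KO over WT was 0.10 (95% interval -0.13 to 0.33, adjusted p = 0.435), so its RNA level gives no check of the ko label, and every direction below is that of the libraries labelled KO. Plasmatocyte markers were present but moved in both directions, with 2 rises and 3 falls among 8 tested. Over all 8405 genes tested, 27.7% rose and 26.5% fell, so such a split is not particular to these markers. The counts for other marker lists below are to be read beside the same shares. Hml stood at 558 ± 99.4 TPM (transcript abundance scaled by length and library) in KO and 526 ± 91.7 TPM in WT (SD, n = 3 each). The marker gene srp had 133, 143 and 136 TPM in KO replicates 1 to 3, against 124, 121 and 116 in WT replicates 1 to 3. NimC1, another marker of these cells, was at most 2.22 TPM. The phagocytic receptor gene eater averaged 15.8 ± 1.40 TPM in KO and 68.7 ± 2.33 in WT, drpr 43.1 ± 0.97 in KO and 19.4 ± 0.93 in WT, and crq and ush fell by 0.30 and 0.23 on the log2 scale. Summed TPM over the 9 fat body markers was 3.27 to 5.55 in KO and 6.45 to 9.88 in WT, with Lsp1alpha at most 0.04 and Lsp2 at most 0.05 TPM. Of the 4 tested, 1 rose and 1 fell. Lsp1beta stood at 0.32, 0.49 and 0.15 TPM in KO replicates 1 to 3, against 6.41, 5.98 and 4.48 in WT replicates 1 to 3. Without it, a choice made after its values were seen, the sum was 3.12 to 5.23 in KO and 1.97 to 3.47 in WT, and Yp3 rose to 2.29 ± 0.62 TPM in KO, against 0.77 ± 0.35 in WT. Summed TPM over the 6 lamellocyte markers was 461 to 479 in KO and 183 to 275 in WT, led by betaTub60D, and 3 of the 4 tested rose and 0 fell. PPO3 averaged 18.7 ± 1.55 TPM in KO and 0.63 ± 0.017 in WT, a log2 fold change of 4.89. In contrast cher was level (log2 fold change 0.0024), and atilla was at 0 TPM in every KO library and at most 0.24 in WT. The lamellocyte sum moved in the same direction as most basement membrane genes, but it was not alone in this. The crystal cell sum was 3.89 to 4.71 TPM in KO and 0.71 to 1.0 in WT. For muscle markers it was 398 to 409 in KO and 309 to 356 in WT, and for epithelium and disc markers 17.8 to 20.5 and 12.8 to 14.6. The follicle cell and ovarian soma sum was lower in KO (121 to 127, against 148 to 161 in WT), and neuron and glia sums overlapped. The part of any of these in the values of the basement membrane genes was not tested. Replicate 1 stood apart from replicates 2 and 3 in both groups, and WT replicates 2 and 3 were closer to each other than any other pair.

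Most of the basement membrane genes had more RNA in the libraries labelled KO. Of the 10 genes, 9 were tested, and each of these had at least 44 expected counts in every library. By edgeR's quasi-likelihood test with Benjamini-Hochberg adjustment, 8 rose and 1, PH4alphaEFB, fell. Over all 8405 genes tested, 27.7% rose and 26.5% fell, so 54.1% passed the test in one direction or the other. The 6 genes that rose at least 2-fold were Glt, Ppn, Pxn, trol, Col4a1 and vkg, where 9.17% of all tested genes rose that much. Rises of at least 16-fold were seen for Glt, Ppn and Pxn, against 1.23% of all tested genes. The median log2 fold change was 1.46 over the 9 genes and 0.0080 over all genes tested. Since the 10 genes were chosen with earlier results of these data known, these comparisons describe them and do not test them for enrichment. RNA from bulk cultures cannot tell a change in RNA per cell from a change in the share of cells that make it.

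**Figure D1:**
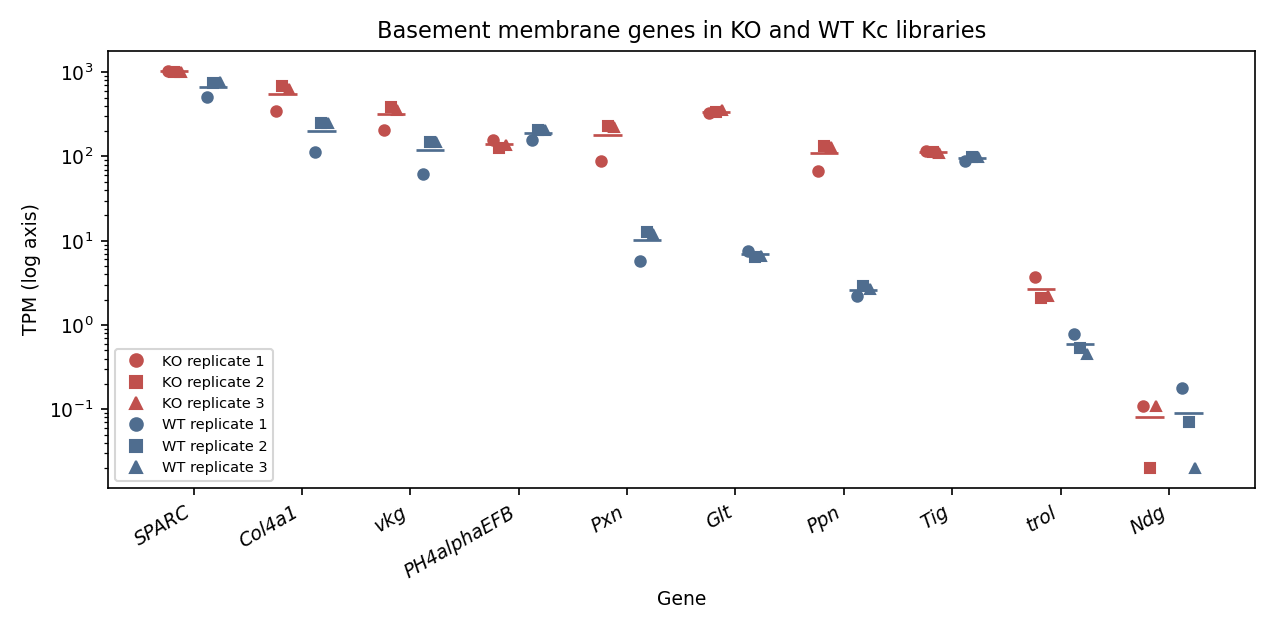
TPM (log axis) of the 10 genes in each library, with KO left of WT for every gene, 1 marker shape per replicate number and a horizontal line at the group mean. Glt, Ppn and Pxn stand at 67.7 TPM or more in every KO library and at 12.8 TPM or less in every WT library, and Ndg lies at 0.18 TPM or less throughout.

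The order of transcript levels differed between the groups. In KO, SPARC led at 1024 ± 17.4 TPM, followed by Col4a1 at 552 ± 180, Glt at 342 ± 13.0, vkg at 315 ± 96.2, Pxn at 180 ± 79.1, PH4alphaEFB at 140 ± 14.9, Tig at 113 ± 2.97, Ppn at 110 ± 37.0, trol at 2.69 ± 0.92 and Ndg at 0.080 ± 0.052 TPM (SD, n = 3). The library ranges of Col4a1, Glt, vkg, Pxn and PH4alphaEFB overlapped from each to the next in that order, as did those of Tig and Ppn. Within single KO libraries, Col4a1 nevertheless lay above Glt and above vkg each time, and vkg above Pxn, whereas Glt and vkg, Pxn and PH4alphaEFB, and Tig and Ppn changed places between libraries. In WT, SPARC also led at 666 ± 142 TPM, followed by Col4a1 at 203 ± 78.4, PH4alphaEFB at 191 ± 28.2, vkg at 120 ± 49.8, Tig at 94.7 ± 5.37, Pxn at 10.2 ± 3.88, Glt at 6.88 ± 0.67, Ppn at 2.62 ± 0.34, trol at 0.59 ± 0.18 and Ndg at 0.090 ± 0.082 TPM. Ranges overlapped there between Col4a1 and PH4alphaEFB, between vkg and Tig, and between Pxn and Glt. TPM is scaled by transcript length, so these levels can be set against each other.

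Together the 10 genes took 0.236%, 0.302% and 0.296% of all TPM in KO replicates 1 to 3, against 0.0942%, 0.146% and 0.149% in WT replicates 1 to 3. Of expected counts, which are not divided by transcript length, they took 0.532%, 0.821% and 0.787% in KO replicates 1 to 3, against 0.176%, 0.297% and 0.301% in WT replicates 1 to 3. The make-up of that sum changed as well. SPARC made up 37.4% of it in KO and 51.7% in WT on average, and PH4alphaEFB 5.16% in KO and 15.0% in WT. Glt made up 12.4% in KO and 0.565% in WT, and Pxn 6.29% in KO and 0.769% in WT.

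**Figure D2:**
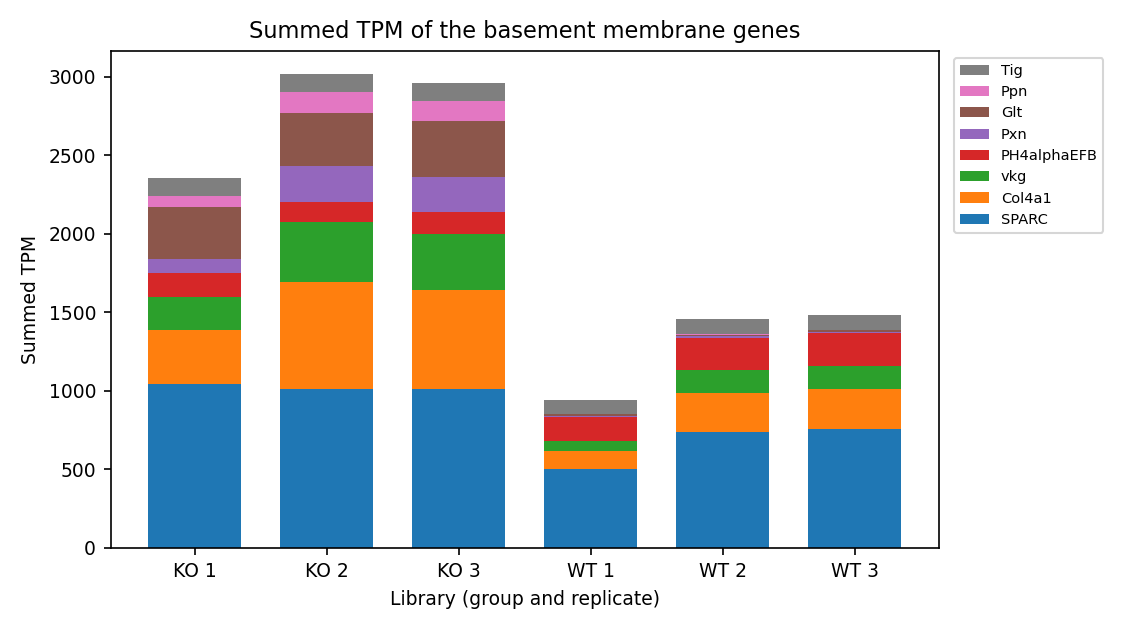
Summed TPM of 8 of the genes as stacked bars, 1 bar per library with KO left of WT; trol and Ndg, at 3.76 TPM or less, are too low to draw. The Glt, Pxn and Ppn segments are visible mainly in the KO bars, and the replicate 1 bar is the lowest of each group.

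The collagen IV chains were higher in KO by nearly the same factor. Col4a1, which encodes the alpha 1 chain, had 346, 679 and 630 TPM in KO replicates 1 to 3, against 113, 248 and 249 TPM in WT replicates 1 to 3. All KO libraries lay above all WT libraries, although KO replicate 1 lay closer to the WT libraries than to the other KO libraries. edgeR gave a log2 fold change of 1.46 (95% interval 0.65 to 2.27; SE 0.35; adjusted p = 0.00962), a 2.76-fold rise. The partner chain gene vkg had 205, 382 and 358 TPM in KO and 62.2, 148 and 149 TPM in WT, again without overlap. For vkg the fit gave a log2 fold change of 1.42 (95% interval 0.58 to 2.25; SE 0.36; adjusted p = 0.0125), a 2.67-fold rise. Across all 9 tested genes, 8 had every KO library above every WT library in normalised CPM, where 31.9% of all tested genes did, and 0 had every KO library below every WT library, where 31.4% did.

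Within single libraries the chains stayed in a narrow ratio. Col4a1 over vkg, in TPM, was 1.69, 1.78 and 1.76 in KO replicates 1 to 3 and 1.81, 1.67 and 1.68 in WT replicates 1 to 3. The group values of 1.74 ± 0.046 in KO and 1.72 ± 0.081 in WT differed by less than their spread (exact permutation test, two-sided, p = 0.8; with 3 libraries against 3 the smallest possible p is 0.1). Both genes lie on 2L and point away from each other, vkg on the minus strand at 5012144 to 5028191 and Col4a1 on the plus strand at 5029609 to 5037279 in dm6. The annotated starts are separated by 1417 bases. Neither shares exon bases with another annotated gene. The next tested gene beside vkg, SelT, stood 16 bases away and rose by 0.39 on the log2 scale (SE 0.05, adjusted p = 0.00077). On the other side of Col4a1, CG31650 had a log2 fold change of 0.05 (SE 0.11, adjusted p = 0.722).

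Replicate 1 of each group held less collagen IV RNA than the other replicates. Col4a1 in replicate 1 was 0.529 of the mean of replicates 2 and 3 in KO and 0.454 in WT, and vkg was 0.554 in KO and 0.419 in WT. Pxn behaved in the same way at 0.393 in KO and 0.463 in WT, and Ppn stood at 0.514 in KO and 0.797 in WT. In contrast trol was higher in replicate 1, at 1.74 times the others in KO and 1.61 times in WT. Glt was near 1 in both groups, at 0.952 in KO and 1.18 in WT. Over all tested genes the median of this ratio was 0.956 in KO and 0.985 in WT. Between libraries of the same number, the KO over WT ratio of Col4a1 was 3.07, 2.74 and 2.52 for numbers 1 to 3, and that of vkg was 3.29, 2.58 and 2.41. The rise of the chains was thus present within each number, in spite of the lower level in both replicate 1 libraries.

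**Figure D3:**
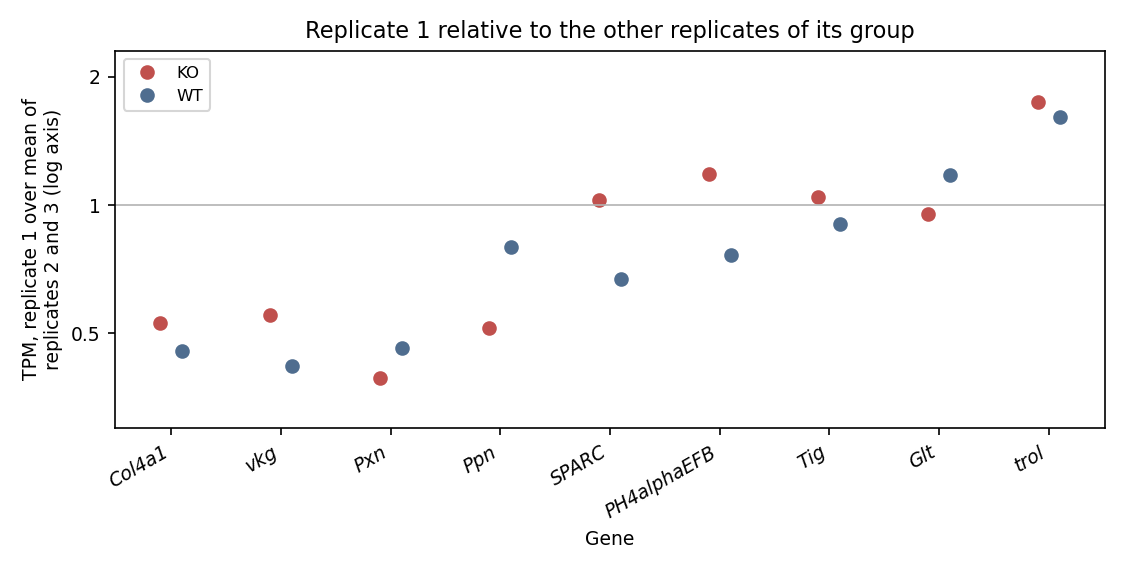
TPM in replicate 1 divided by the mean TPM of replicates 2 and 3 of the same group (log axis), for KO (left point) and WT (right point) of each tested gene, with a line at 1. Col4a1, vkg and Pxn lie between 0.393 and 0.554 in both groups, whereas trol lies at 1.61 and above.

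PH4alphaEFB, which encodes an alpha subunit of prolyl 4-hydroxylase, was the only one of the 9 tested genes to fall. It had 156, 127 and 137 TPM in KO replicates 1 to 3 and 158, 206 and 208 TPM in WT replicates 1 to 3. On the TPM scale KO replicate 1 and WT replicate 1 were almost level, and on the CPM scale they crossed, at 238 in KO and 234 in WT. PH4alphaEFB had a log2 fold change of -0.42 (95% interval -0.71 to -0.13; SE 0.12; adjusted p = 0.0241). This call did not hold without KO replicate 2 (adjusted p = 0.0820), KO replicate 3 (0.0743), WT replicate 2 (0.0784) or WT replicate 3 (0.0810), nor with WT replicates 2 and 3 summed to 1 sample (0.0780). Between libraries of the same number, KO over WT was 0.987 for number 1, 0.616 for number 2 and 0.658 for number 3.

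Relative to the collagen chains, the hydroxylase transcript was lower in every KO library. PH4alphaEFB over the summed TPM of Col4a1 and vkg was 0.284, 0.120 and 0.139 in KO replicates 1 to 3, against 0.905, 0.521 and 0.524 in WT replicates 1 to 3. The mean difference on the log2 scale was -1.90, which corresponds to 0.267 of the WT ratio (exact permutation test, two-sided, p = 0.1, the smallest that 3 against 3 can give). Both replicate 1 libraries had the highest ratio of their group. In TPM, PH4alphaEFB lay lower and both chains higher in every KO library, so the separation of this ratio follows from those levels.

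SPARC, which encodes a collagen-binding glycoprotein of the matrix, rose less than the collagen chains. It had 1044, 1014 and 1013 TPM in KO replicates 1 to 3, against 503, 736 and 759 TPM in WT replicates 1 to 3. The KO libraries lay close together, and the lowest WT library was replicate 1. SPARC had a log2 fold change of 0.64 (95% interval 0.31 to 0.98; SE 0.14; adjusted p = 0.00779). Its size depended on WT replicate 1, since the same-number ratios of KO over WT were 2.08, 1.38 and 1.33 for numbers 1 to 3. The log2 fold change was 0.47 without WT replicate 1 and 0.44 without both replicate 1 libraries, and SPARC was called in both fits. With the median fold change of its 1 Mb segment as an offset, SPARC stood at 0.36 and was not called (adjusted p = 0.0796). That segment of 3R, with 48 tested genes, had a median log2 fold change of 0.28, while the genes on either side of SPARC were lower in KO, His2Av by -0.41 and Rb97D by -0.74. SPARC over the collagen chains was 1.89, 0.955 and 1.03 in KO and 2.87, 1.86 and 1.91 in WT, with KO replicate 1 inside the WT range (exact permutation test, two-sided, p = 0.2). Within each number the ratio was lower in KO, by a mean log2 difference of -0.82 (SD 0.19 over 3 pairs; exact sign-flip permutation test, two-sided, p = 0.25, the smallest that 3 pairs can give).

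Pxn encodes the heme peroxidase that forms the sulfilimine cross-links between collagen IV trimers. It had 88.7, 228 and 223 TPM in KO replicates 1 to 3, against 5.77, 12.8 and 12.2 TPM in WT replicates 1 to 3. The lowest KO library was well above the highest WT library, and replicate 1 was the lowest in both groups. Its fitted log2 fold change came to 4.15 (95% interval 3.10 to 5.21; SE 0.45; adjusted p = 0.00029), a 17.8-fold rise, and the same-number ratios were 15.4, 17.8 and 18.4. Pxn over the collagen chains, a ratio chosen after its values were seen, was 0.161, 0.215 and 0.226 in KO and 0.0329, 0.0323 and 0.0305 in WT (exact permutation test, two-sided, p = 0.1, the smallest possible). As the ratio was picked for its values, that p adds no support. In WT this ratio varied little even though replicate 1 had less of both transcripts. Exons of Pxn share 82 bases with CG16986 on the opposite strand and 151 bases with lncRNA:CR45660 on the same strand, and its count was not whole in 4 of 6 libraries. Neither neighbouring tested gene was called, with log2 fold changes of -0.05 for CG16985 and 0.13 for MEP-1.

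**Figure D4:**
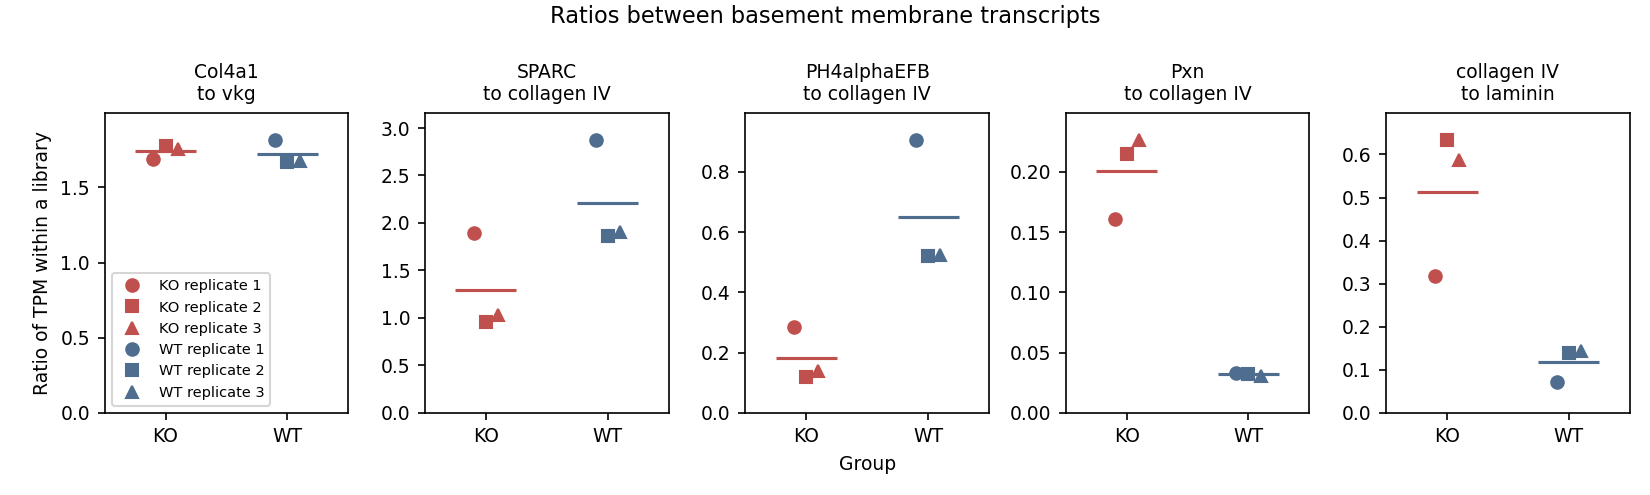
Ratios of TPM within each library, with KO left of WT, 1 marker shape per replicate number and a line at the group mean; collagen IV is the sum of Col4a1 and vkg, and laminin the sum of LanA, LanB1 and LanB2. The Col4a1 to vkg ratio lies between 1.67 and 1.81 in all libraries, whereas the ratios with PH4alphaEFB, Pxn and laminin separate the groups. The separations with PH4alphaEFB and laminin follow from the levels of the genes themselves, and the Pxn and laminin ratios were chosen after their values were seen. The ratio with SPARC overlaps between the groups and is lower in KO within each replicate number.

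The linking components of the membrane were scarce. The perlecan gene trol spans 74968 bases of X and is listed with 22 transcripts. It had 3.76, 2.12 and 2.20 TPM in KO replicates 1 to 3, against 0.79, 0.53 and 0.45 TPM in WT replicates 1 to 3, from 450, 233 and 208 expected counts in KO and 110, 44 and 73 in WT. The groups did not overlap, and replicate 1 was the highest in both. The fit gave trol a log2 fold change of 2.19 (95% interval 1.48 to 2.91; SE 0.30; adjusted p = 0.00090), a 4.57-fold rise. On log2(TPM + 1) the change was 1.19, a scale that compresses changes of such low values. Its neighbours boi and CG13760 were lower in KO, with log2 fold changes of -0.73 and -0.79, and the median over the 92 tested genes of its segment of X was -0.59. With that median as an offset trol stood at 2.78. Ndg, the nidogen gene on 2R, was hardly detected, with 5, 1 and 4 expected counts in KO and 9, 2 and 1 in WT, and the count filter left it out of the test. Without that filter its log2 fold change was -0.07 (SE 0.88, adjusted p = 0.959), so no difference could be seen at this depth.

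Papilin and glutactin showed the greatest rises among the 10 genes. Ppn encodes papilin, a secreted proteoglycan-like glycoprotein with thrombospondin and Kunitz repeats. It had 67.7, 132 and 131 TPM in KO replicates 1 to 3, against 2.24, 2.91 and 2.71 TPM in WT replicates 1 to 3. Ppn had a log2 fold change of 5.43 (95% interval 4.76 to 6.10; SE 0.29; adjusted p = 1.68e-05), a 43.1-fold rise. By size of the fitted rise Ppn ranked 42 among 8405 genes. The gene beside it at 149 bases, CG31051, was listed at 0 TPM in WT and had a mean of 3.20 TPM in KO. CG31051 was called higher, with a log2 fold change of 7.51 (SE 0.81, adjusted p = 0.00106), a size that rests on a WT level of 0. On the other side of Ppn, mIF2 had a log2 fold change of -0.32 (adjusted p = 0.181).

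Glt encodes glutactin, a sulfated basement membrane glycoprotein with a cholinesterase-like domain. It had 330, 339 and 356 TPM in KO replicates 1 to 3, against 7.65, 6.42 and 6.58 TPM in WT replicates 1 to 3. Libraries of a group lay close together, replicate 1 included. The fitted log2 difference of KO over WT was 5.65 (95% interval 5.44 to 5.86; SE 0.09; adjusted p = 2.19e-07), a 50.2-fold rise that ranked 37 among all genes tested. Its exons share 28 bases with CG9287 on the opposite strand. Neither neighbour of Glt on 2L was called, with log2 fold changes of 0.04 for Sema1a and -0.07 for PrBP. In TPM Ppn stood below Glt in every library of both groups.

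Tig encodes tiggrin, a matrix ligand of the PS2 integrin, and changed least among the 8 basement membrane genes that rose. It had 116, 113 and 111 TPM in KO replicates 1 to 3, against 88.5, 97.6 and 98.0 TPM in WT replicates 1 to 3. The groups did not overlap, yet the gap between them was small. edgeR gave a log2 fold change of 0.28 (95% interval 0.13 to 0.43; SE 0.06; adjusted p = 0.00864), a 1.22-fold rise. Exons of Tig share 157 bases with CG13982 on the opposite strand, and its counts were not whole in any library.

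**Figure D5:**
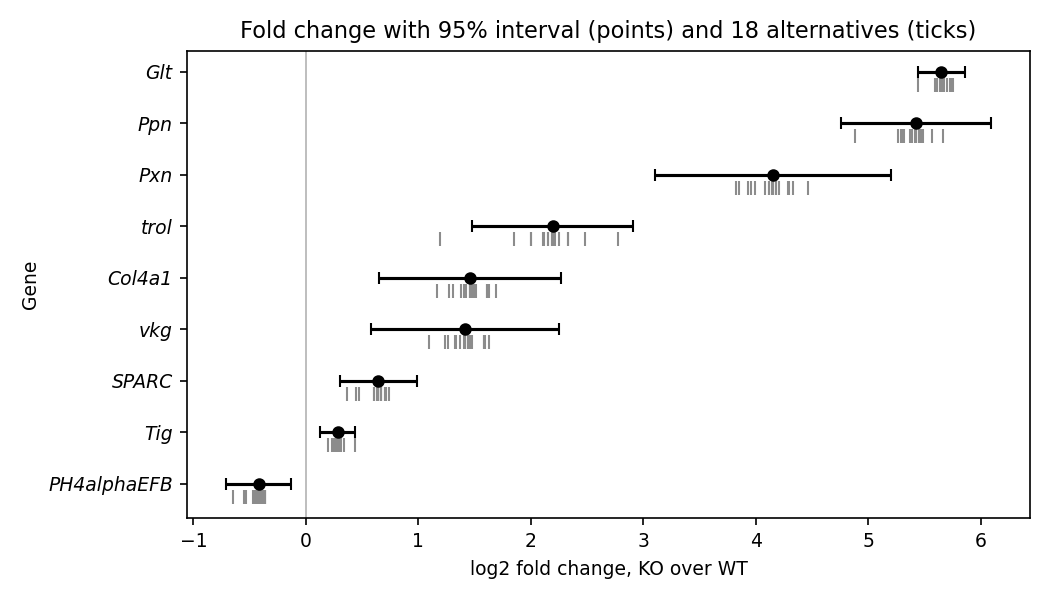
log2 fold change of KO over WT for the 9 tested genes, as points with 95% intervals from edgeR and, below each point, grey ticks for the 18 alternative fits. Glt, Ppn and Pxn lie above 3 on every fit, and PH4alphaEFB lies below 0 on every fit.

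Transcript length, weighted by isoform abundance, was not called for any of these genes. The 6 genes with at least 2 transcripts, a variable length and a mean TPM of at least 5 were Col4a1, vkg, Ppn, Glt, Pxn and Tig, and 0 of them passed limma's test, where 2.72% of 4002 genes did. The greatest difference was that of Ppn, 0.633% longer in KO (adjusted p = 0.151). Without 1 library the number of genes called over the whole table fell to between 18 (without WT replicate 3) and 69 (without KO replicate 1 or WT replicate 1), and with the replicate number as a block it fell to 14, with 0 of the 6 genes called each time. trol, below that TPM limit, averaged 12245 ± 86.6 bases in KO and 12447 ± 188 bases in WT (adjusted p = 0.502 with the limit at a mean of 1 TPM).

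Laminins, the other network of the membrane, went the opposite way in their main chains. Of 4 laminin genes 3 fell and 1 rose, where 26.5% of all tested genes fell and 27.7% rose. LanB1, the beta chain, averaged 603 ± 27.2 TPM in KO and 1261 ± 87.2 TPM in WT, LanA 620 ± 8.31 in KO and 861 ± 96.8 in WT, and LanB2 474 ± 3.92 in KO and 570 ± 45.1 in WT, while the rise was that of wb, at 0.66 ± 0.18 TPM in KO and 0.080 ± 0.053 in WT (adjusted p between 5.62e-05 for LanB1 and 0.0218 for LanB2). Collagen IV over the sum of LanA, LanB1 and LanB2, a ratio chosen after its values were seen, was 0.318, 0.633 and 0.587 in KO replicates 1 to 3 and 0.0720, 0.138 and 0.143 in WT replicates 1 to 3 (exact permutation test, two-sided, p = 0.1, the smallest possible). The groups did not overlap, and replicate 1 was the lowest in both. Both collagen chains lay higher, and LanA, LanB1 and LanB2 lower, in every KO library than in every WT library. The ratio therefore had to separate the groups, and its p adds no evidence.

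Of 19 tested genes for folding and modifying collagen, 4 rose, 4 fell and the others were not called, with a median log2 fold change of -0.11; over all genes tested, 27.7% rose and 26.5% fell. The 18 other listed genes, most of them prolyl 4-hydroxylase alpha relatives, did not pass the count filter, and PH4alphaMP, PH4alphaSG1 and PH4alphaSG2 had no count in any library. Pdi, the protein disulfide isomerase that in animals also serves as the beta subunit of prolyl 4-hydroxylase, rose to 875 ± 52.2 TPM in KO, against 519 ± 49.2 TPM in WT (log2 fold change 0.78, SE 0.08, adjusted p = 0.00025). The chaperone genes Gp93 and Hsc70-3 rose by 0.41 and 0.34 on the log2 scale, and the oxidase gene Ero1L fell by 0.26.

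Among 18 genes for exit from the endoplasmic reticulum and polarised secretion, all tested, 7 rose and 5 fell, with a median log2 fold change of 0.06. Over all genes tested, 27.7% rose and 26.5% fell. The COPII coat genes Sec24CD, Sar1 and Sec23 rose by 0.72, 0.40 and 0.39 on the log2 scale. Tango1, whose protein helps load collagen into carriers, averaged 40.3 ± 1.55 TPM in KO and 50.6 ± 2.09 TPM in WT (log2 fold change -0.30, SE 0.05, adjusted p = 0.00159).

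Of 11 tested receptors of the membrane 2 rose and 4 fell, with a median log2 fold change of -0.02. Over all genes tested, 27.7% rose and 26.5% fell, or 54.1% together, so receptors were called about as often as all genes. The other counts in this paragraph are to be read beside the same shares. The integrin alpha chain gene mew averaged 18.3 ± 1.15 TPM in KO and 66.5 ± 4.93 TPM in WT, and the glypican gene dally 54.3 ± 3.50 in KO and 89.5 ± 2.06 in WT. Among 16 tested genes of heparan sulfate synthesis, which builds the sugar chains that perlecan carries, 3 rose and 6 fell (median 0.07). The polymerase gene ttv fell by 1.21 and Sulf1, which removes sulfate groups, rose by 1.88 on the log2 scale. Of 8 matrix proteases and inhibitors 4 rose and 2 fell (median 0.29), with the metalloprotease gene kuz at 118 ± 2.78 TPM in KO and 360 ± 5.70 in WT, and Mmp1 at 100.5 ± 8.84 in KO and 129 ± 29.5 in WT (adjusted p = 0.145). Among those that rose, stl stood at 7.99 ± 0.48 TPM in KO and 0.56 ± 0.21 in WT. Of 10 other matrix protein genes 4 rose and 2 fell (median 0.80), led in level by mfas at 602 ± 46.6 TPM in KO and 129 ± 42.0 in WT. Of those that fell, fon stood at 7.46 ± 3.18 TPM in KO and 64.1 ± 10.5 in WT.

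Relatives of 2 strongly raised genes were listed as well, and their counts stand beside 27.7% of all tested genes that rose and 26.5% that fell. Of 4 tested heme peroxidase relatives of Pxn 2 rose and 0 fell (median 0.73), and Pxt averaged 304 ± 4.95 TPM in KO and 23.0 ± 2.41 TPM in WT (log2 fold change 3.74, SE 0.09, adjusted p = 8.72e-07). Irc, another member of that family, had a log2 fold change of -0.07 (adjusted p = 0.441). Of 7 tested cholinesterase-like relatives of Glt 5 rose and 1 fell (median 2.05), with alpha-Est7 at 32.7 ± 2.54 TPM in KO and 6.90 ± 1.44 in WT, and Gli, the gene that fell, at 8.95 ± 1.80 in KO and 17.8 ± 4.05 in WT.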

How the data were processed

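Per the submitters' processing notes, CASAVA 1.7, cutadapt, STAR 2.7.0f and RSEM 1.3.0 were used with dm6; options, annotation release and strand use are not stated in these notes. The deposited tables hold, per gene and library, an expected count, a TPM value and an isoform-weighted length in bases, per the file headers. The rounded counts of all genes went into edgeR 4.0.16 under R 4.3.3, with TMM scaling, filterByExpr (minimum count 10) and the quasi-likelihood test, and p-values were adjusted by Benjamini-Hochberg over 8405 genes (threshold 0.05). Each SE is the log2 fold change divided by the square root of F. Lengths were tested on the log2 scale with limma 3.58.1. Alternatives included DESeq2 1.42.0 and limma on log2(TPM + 1). Coordinates come from Ensembl's annotation in dm6 coordinates.

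The basement membrane genes and the lists were chosen with earlier results of these data known. All 10 genes are named whatever their value, and from each list up to 4 called genes of lowest adjusted p and the 2 of highest TPM may be. Genes named beside another gene by position, srp, NimC1, Lsp1alpha, Lsp2, atilla and the PH4alpha genes without counts lie outside that rule.

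Same-numbered libraries deviated together from their group means (r = 0.52, 0.15 and 0.44 across genes for numbers 1 to 3), each over the limit of 0.1 for taking numbers as pairs, though no label states a pairing and numbers 2 and 3 matched across about as well (0.17 for KO replicate 2 with WT replicate 3, and 0.42 for KO replicate 3 with WT replicate 2). The chi-square per gene over whole counts (within 0.005) was 1.63 between WT replicates 2 and 3, 2.77 between KO replicates 2 and 3, and 17.8 or more between other pairs of a group. The edgeR procedure was tested on simulated counts for KO against WT over 8312 genes: of 50 genes with a 2-fold change 45 were recovered, of 50 with a 1.5-fold change 37, of 49 with a 1.25-fold change only 4, and 6 of 8113 unchanged genes were called. The simulated libraries were independent, had no shift of replicate 1 and had few changed genes. In the data 54.1% of genes were called and replicate 1 stood apart, so these rates may not hold for them.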

Additional observations from a re-analysis of the deposited data

How the results depend on the processing

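All 18 alternative fits kept the direction of all 9 tested genes, and the calls of Col4a1, vkg, trol, Ppn, Glt, Pxn and Tig held in each. Given the segment medians as an offset, SPARC lost its call (log2 fold change 0.36, adjusted p = 0.0796), and PH4alphaEFB lost its own with WT replicates 2 and 3 summed (-0.38, adjusted p = 0.0780) and in 4 of the 6 fits without 1 library, over which its log2 fold change ran from -0.55 to -0.36. Without both replicate 1 libraries it was -0.65. The cause was not tested. The log2 difference in the Col4a1 to vkg ratio, 0.018, ran from -0.0039 (without WT replicate 2) to 0.056 without 1 library. The groups' difference in the summed share was 0.148 percentage points of TPM and 0.455 of expected counts, which also weight by transcript length.

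With the replicate number as a block, 5061 genes were called in place of 4551, and of the basement membrane genes again 8 higher and 1 lower, so the block changed no call among them. It gave log2 fold changes of 1.49 (SE 0.08) for Col4a1 and 1.47 (SE 0.10) for vkg. Over the other alternatives 3621 to 5801 genes were called. Depth limits Ndg, at 9 counts or fewer per library, and to a lesser degree trol in WT.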
